A study of Mus musculus with 17 samples.

Results

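Trerf1 (ENSMUSG00000064043), the mouse gene for transcriptional regulating factor 1, was 1 gene of 26029 in the count table of model 1, of 24659 in that of model 2 and of 31633 in a second table for 7 mice of model 1. It was chosen by its measured counts, which were higher in leukaemic than in preleukaemic blasts in both models, so these levels are given as a description and were not tested. RNA-seq was analysed for 17 mice in 5 groups, with 1 library per mouse of erythroid blasts cultured with erythropoietin (EPO). All groups carried the Spi1 transgene, which encodes the transcription factor SPI1 (PU.1) and which the study describes as expressed constitutively. The measured level of Spi1 was nevertheless low in 1 leukaemic mouse of model 1 (leukemic_39), as given below. Model 1 (strain DBA2JxFVB/N, library protocol 2) held 4 preleukaemic mice with intact Fanca (TgSpi1Fanca.wt, here TgSpi1FA+/+; preleukemic_138, preleukemic_445, preleukemic_451 and preleukemic_479), 3 preleukaemic mice without Fanca (TgSpi1Fanca.ko, here TgSpi1FA-/-; preleukemic_40, preleukemic_77 and preleukemic_224) and 3 leukaemic TgSpi1FA-/- mice (leukemic_26, leukemic_28 and leukemic_39). Model 2 (strain DBA2J, another library protocol, all TgSpi1Fanca.wt) held 4 preleukaemic mice (preleukemic_633, preleukemic_663, preleukemic_812 and preleukemic_837) and 3 leukaemic mice (leukemic_601, leukemic_606 and leukemic_921). Libraries are called by the last word of their titles. Leukaemic cells grow without EPO and form tumours, and preleukaemic cells depend on EPO. In model 2 the leukaemic cells arose after repeated transfusion of anaemic mice, in model 1 without it. Fanca is a subunit of the Fanconi anaemia core complex, which acts in the repair of DNA crosslinks. Strain, library protocol and model cannot be told apart.

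The human orthologue of Trerf1, also called TReP-132, is a zinc finger protein that was first studied as a regulator of CYP11A1, the gene for the enzyme that starts steroid hormone synthesis by cutting the side chain of cholesterol. The protein carries an ELM2 and a SANT domain, a pair of modules with which several corepressors hold histone deacetylases. It is a paralogue of MIDEAS and ZNF541, which act as scaffolds of a mitotic or meiotic complex of HDAC1, HDAC2 and DNTTIP1.

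On GRCm38 the annotation (GENCODE M21) places Trerf1 on chromosome 17 at 47140875 to 47361958, plus strand, with 6 transcripts and 9070 bases of exons. It gives the gene no protein-coding transcript and the type processed_transcript, whereas RefSeq lists it as protein coding from 47140942 to 47362325. A small rRNA gene model, Gm26216, lies within it on the same strand. The promoter entry that RefSeq (GRCm38.p6) gives for Trerf1 starts at 47230230, which is 89.4 kb after the first GENCODE start and is the first base of an internal exon in 5 of the 6 transcripts. The 250 bases before it are shown because this is the only promoter entry given for the gene, and because the transgene of all mice encodes PU.1, whose core letters were searched in it. Gene counts do not tell which start was used. Capitals mark CCAAT and, as TTCCTC, the minus strand of GAGGAA.
Trerf1, chr17:47229980-47230229, plus strand: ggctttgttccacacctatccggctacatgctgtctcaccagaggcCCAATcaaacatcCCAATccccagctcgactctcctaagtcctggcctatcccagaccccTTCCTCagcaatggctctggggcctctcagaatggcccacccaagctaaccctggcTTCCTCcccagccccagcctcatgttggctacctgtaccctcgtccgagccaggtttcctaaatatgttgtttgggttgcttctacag
Letters of 6 kinds were searched on both strands of the window of 300 bases that runs from 250 before the start to 50 after it. GAGGAA (the PU.1 core) was found 3 times, at -144 and -88 on the minus strand and at 26 on the plus strand. It occurs in 28.3% of the 32851 promoter windows. CCAAT was found 2 times, at -204 and -191, and occurs in 37.4% of the windows. The GATA letters (AGATAA, in 11.2% of the windows), the E-box (CACGTG, in 7.15%), the AP-1 letters (TGACTCA, in 5.2%) and the TATA box (TATAAA, in 13.6%) were not found. These letters are a description of the window and not sites.

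Total counts were 29964576 to 38217654 per library in model 1, 37726753 to 40514205 in model 2 and 35497594 to 171572736 in the second table. Levels are CPM, counts scaled to a common library size with TMM factors, and 3 counts, taken as the limit for a count of 0, were 0.0742 to 0.0985 CPM in the first tables. Intervals and floors cover counting error only. Fanca was at 0.615 to 2.30 CPM in the 6 TgSpi1FA-/- libraries and at 28.2 to 83.5 CPM in the 4 TgSpi1FA+/+ libraries of model 1. The column names and source labels call preleukemic_40, preleukemic_77 and preleukemic_224 leukaemic, and their titles and cell type labels call them preleukaemic, which was used. The libraries of preleukemic_445 and preleukemic_479 were much more alike in the first table (chi-square of 9.18 per degree of freedom) than either was to preleukemic_451 or preleukemic_138, but not in the second (390). They are counted as 2 mice. The summed level of 10 erythroid markers was 3810 to 5320 CPM in the preleukaemic libraries of model 1 and 2230 to 3590 CPM in the leukaemic ones, and 4010 to 5320 against 2180 to 3960 CPM in model 2. The blasts therefore carried erythroid markers in every library, at a summed level that was lower in the leukaemic libraries of both models without overlap. Lymphoid markers summed to at most 0.384 CPM and myeloid markers to at most 1.78 CPM. In bulk samples, fewer cells of a type and less RNA per cell cannot be told apart.

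In preleukaemic blasts of model 1 Trerf1 was low, and ran from 0 counts in the TgSpi1FA-/- mice to 31 counts in preleukemic_479. The TgSpi1FA+/+ mice had 7 counts (preleukemic_445, 0.218 CPM), 31 counts (preleukemic_479, 0.984 CPM), 8 counts (preleukemic_451, 0.256 CPM) and 1 count (preleukemic_138, 0.0284 CPM). The TgSpi1FA-/- mice preleukemic_40, preleukemic_77 and preleukemic_224 each had 0 counts, which allows up to 0.0970, 0.0985 and 0.0877 CPM. All 4 libraries with intact Fanca thus held at least 1 read and the 3 without Fanca held none, although the single read of preleukemic_138 lies under that limit.

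In the TgSpi1FA-/- leukaemic mice Trerf1 had 247 counts in leukemic_26, 258 counts in leukemic_28 and 839 counts in leukemic_39. These are 6.77, 6.59 and 21.3 CPM, with a mean of 11.6 ± 8.43 CPM (SD, n = 3). Mouse leukemic_39 was about 3-fold above the other leukaemic mice, and every leukaemic library was above every preleukaemic one. Against 3 counts per library in the TgSpi1FA-/- preleukaemic mice, the leukaemic mean was at least 122-fold higher. Without leukemic_39 the bound was 70.8-fold. The mean was 31.1-fold that of the TgSpi1FA+/+ preleukaemic mice (0.372 ± 0.420 CPM, n = 4), and 68.9-fold without preleukemic_479, the highest of them. Of the 13393 genes tested in model 1, 19.4% had all TgSpi1FA-/- leukaemic libraries above all TgSpi1FA-/- preleukaemic libraries, and 12.8% had them above all TgSpi1FA+/+ preleukaemic libraries.

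Model 2 gave levels of the same order in mice with intact Fanca. The preleukaemic mice had 3 counts (preleukemic_633, 0.0756 CPM), 0 counts (preleukemic_663), 7 counts (preleukemic_812, 0.187 CPM) and 0 counts (preleukemic_837). The leukaemic mice had 519 counts (leukemic_601, 13.3 CPM), 173 counts (leukemic_606, 4.39 CPM) and 225 counts (leukemic_921, 6.39 CPM). Every leukaemic library was above every preleukaemic one. The leukaemic mean was 8.03 ± 4.68 CPM (n = 3) and the preleukaemic mean 0.0656 ± 0.0882 CPM (n = 4), a ratio of 122. The preleukaemic sum of 10 counts puts this ratio between 66.6 and 255 (95% Poisson interval), and it was 319 without preleukemic_812. All leukaemic libraries lay above all preleukaemic ones for 9.65% of the 12970 genes tested in model 2, and in both models for 1.57% of the 12091 genes tested in both (190 genes).

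**Figure D1:**
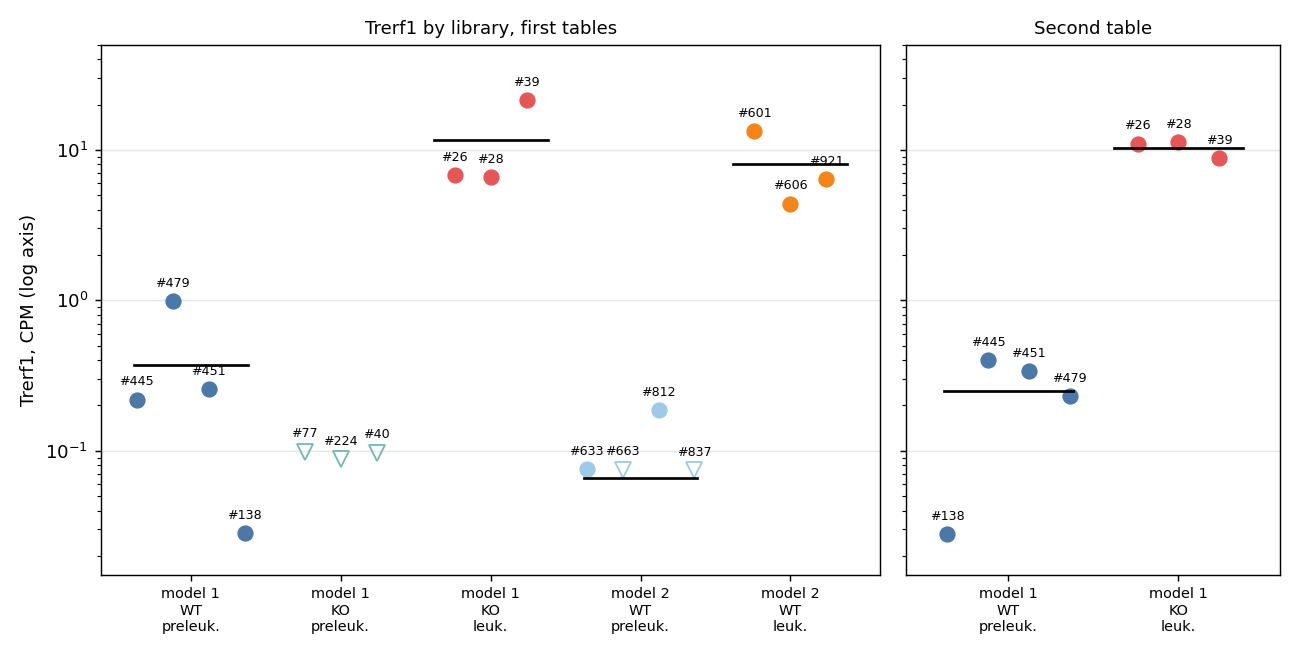
Trerf1 in CPM on a log axis for each mouse (points, with the number of its library), in the 5 groups of the first tables and the 2 groups of the second table. Open triangles are libraries with 0 counts, drawn at the level of 3 counts, and bars are group means, for which these count as 0. The leukaemic libraries sit between 4.39 and 21.3 CPM, and no preleukaemic library is above 0.984 CPM.

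Ordered by mean, the groups were TgSpi1FA-/- leukaemic (11.6 CPM), model 2 leukaemic (8.03 CPM), TgSpi1FA+/+ preleukaemic of model 1 (0.372 CPM), preleukaemic of model 2 (0.0656 CPM) and TgSpi1FA-/- preleukaemic (0 CPM). Both leukaemic groups overlapped each other, from 6.59 to 21.3 CPM and from 4.39 to 13.3 CPM. The preleukaemic group of model 2 overlapped both preleukaemic groups of model 1. The only gap in the order with no overlap between neighbours was that between the leukaemic and the preleukaemic groups.

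Counts of the second table covered 7 mice and no TgSpi1FA-/- preleukaemic mouse. There Trerf1 had 1935 counts in leukemic_26 (10.9 CPM), 1623 in leukemic_28 (11.2 CPM) and 321 in leukemic_39 (8.77 CPM). The preleukaemic mice had 35 counts in preleukemic_445 (0.398 CPM), 31 in preleukemic_451 (0.338 CPM), 28 in preleukemic_479 (0.231 CPM) and 3 in preleukemic_138 (0.0279 CPM). The leukaemic mean was 10.3 ± 1.33 CPM against 0.249 ± 0.163 CPM, a ratio of 41.4. As in the first table no leukaemic library overlapped a preleukaemic one, which held for 10.5% of the 16799 genes tested in that table. Mouse leukemic_39 was the highest leukaemic mouse for Trerf1 in the first table and the lowest in the second, and preleukemic_479 was the highest preleukaemic mouse in the first and the third in the second. Mouse preleukemic_138 was the lowest in both, at 0.0284 and 0.0279 CPM. The order of mice within a group was therefore not kept between the tables, whereas the order of the groups was.

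The loss of Fanca before leukaemia is described with no test for Trerf1, since its choice used the TgSpi1FA-/- preleukaemic libraries and it passed the filter on low counts through the leukaemic libraries. Against 3 counts per library in the TgSpi1FA-/- mice, the TgSpi1FA+/+ mean was at least 3.94-fold higher, and 1.78-fold without preleukemic_479. In this comparison edgeR called 1 of 13393 genes (0.00747%), where a call means a fold change of 1.5 or more either way with an adjusted p under 0.05, with 1159 genes at an unadjusted p under 0.05, and DESeq2 called 256 (1.87%). All TgSpi1FA+/+ libraries lay above all TgSpi1FA-/- libraries for 4.27% of genes.

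Cyp11a1, the enzyme gene after which TReP-132 was studied, was detected in the leukaemic libraries of both models. In model 1 it had 87 counts in leukemic_26, 31 in leukemic_28 and 26 in leukemic_39 (2.38, 0.792 and 0.660 CPM). The TgSpi1FA-/- preleukaemic mice had 0 counts in preleukemic_77 and preleukemic_224 and 1 in preleukemic_40, and the TgSpi1FA+/+ preleukaemic mice had 1 count in each of preleukemic_445, preleukemic_479 and preleukemic_451 and 18 in preleukemic_138 (0.511 CPM). The leukaemic mean of 1.28 ± 0.960 CPM was at least 13.5-fold above 3 counts per library in the TgSpi1FA-/- preleukaemic mice, and 7.69-fold without leukemic_26. The fitted log2 fold change of Cyp11a1 in TgSpi1FA-/- leukaemic against preleukaemic mice was 6.50 (SE 1.56, edgeR adjusted p = 0.0295). In both models it passed the filter on low counts through the leukaemic libraries, as Trerf1 did, so its fits are descriptions. Under the filter of 1 CPM in 3 libraries it was not tested in model 1. The adjusted p was 0.0529 to 0.102 without leukemic_28, leukemic_39, preleukemic_40, preleukemic_77 or preleukemic_224 in turn. In model 1 6.82% of all genes were called higher and 6.49% lower, 13.3% together. In the second table Cyp11a1 had 501, 186 and 25 counts in leukemic_26, leukemic_28 and leukemic_39 (2.83, 1.28 and 0.683 CPM) and 0 to 14 counts in the preleukaemic mice, at most 0.152 CPM.

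In model 2 Cyp11a1 was higher in level. The leukaemic mice had 540 counts in leukemic_601 (13.9 CPM), 673 in leukemic_606 (17.1 CPM) and 217 in leukemic_921 (6.16 CPM). The preleukaemic mice had 6 counts in preleukemic_633 (0.151 CPM), 61 in preleukemic_812 (1.63 CPM) and 0 in preleukemic_663 and preleukemic_837. The groups did not overlap. Among the preleukaemic mice, preleukemic_812 and then preleukemic_633 were the highest both for Cyp11a1 and for Trerf1. The means were 12.4 ± 5.61 and 0.444 ± 0.791 CPM, a ratio of 27.8, or 245 without preleukemic_812. The test in model 2 did not call it (log2 fold change 4.79, SE 1.70, edgeR adjusted p = 0.193). In that comparison edgeR called 0 of 12970 genes (0%), although 2587 had an unadjusted p under 0.05, and DESeq2 called 470 (3.45%), Cyp11a1 not among them. The difference of the Cyp11a1 change between the models was 1.71 on the log2 scale (adjusted p = 0.659), a test that 4.6% of 14597 genes passed. Across libraries, Cyp11a1 and Trerf1 had a Pearson r of 0.74 over 10 libraries of model 1 and of 0.95 over 7 libraries of model 2, computed from log2 CPM (prior count 2). Libraries share the leukaemic or preleukaemic state, so that this r is a description.

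Markers of other cell types moved in part with the groups. The summed level of 4 mast cell markers was 59.2 to 69.7 CPM in the leukaemic and 2.57 to 55.7 CPM in the preleukaemic mice of model 2. Of its members Cpa3, a mast cell protease, was at 12.6 to 31.4 CPM in the leukaemic and 0 to 2.32 CPM in the preleukaemic mice, whereas Fcer1a, a chain of the IgE receptor, and Mcpt4, another protease, overlapped between the groups (24.6 to 52.6 against 2.55 to 52.1 CPM for Fcer1a, 1.56 to 13.5 against 0.0252 to 4.6 CPM for Mcpt4). In model 1 the sum was 0.101 to 11 CPM in the TgSpi1FA-/- leukaemic mice, 1.75 to 15.9 CPM in the TgSpi1FA-/- preleukaemic mice and 5.48 to 7.47 CPM in the TgSpi1FA+/+ mice, and overlapped. Tpsb2, a mast cell tryptase, had at most 1 count in every library of model 1.

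The summed level of 4 megakaryocyte markers was 166 to 250 CPM in the TgSpi1FA-/- leukaemic mice, 31.1 to 39.9 CPM in the TgSpi1FA-/- preleukaemic mice and 43.6 to 192 CPM in the TgSpi1FA+/+ mice, which overlapped the leukaemic mice. Itga2b, an integrin of platelets, held most of it in leukemic_28 and leukemic_39 (92.8, 243 and 203 CPM in leukemic_26, leukemic_28 and leukemic_39), while Pf4, a platelet chemokine, was at 69.9, 5.55 and 0.837 CPM in these mice against 9.19 to 23.0 CPM in the TgSpi1FA-/- preleukaemic ones. In model 2 the sum overlapped, at 8.49 to 109 against 22.7 to 75.3 CPM. The summed level of 5 stromal and endothelial markers was 1.45 to 7.69 CPM in the TgSpi1FA-/- leukaemic mice, 9.82 to 274 CPM in the TgSpi1FA-/- preleukaemic mice and 2.60 to 53.1 CPM in the TgSpi1FA+/+ mice. The collagen gene Col1a2 was at 273 CPM in preleukemic_40, whereas the endothelial gene Cdh5 was at 0.178 to 0.521 CPM in the TgSpi1FA-/- leukaemic mice and 0 in all preleukaemic mice of model 1. In model 2 this sum was at most 0.128 CPM in the leukaemic mice and 31.7 CPM in the preleukaemic ones, where preleukemic_837 held 31.7 CPM of Col1a2. The part of these cell types, and of the lower erythroid markers, in the levels of Trerf1 and Cyp11a1 was not tested.

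Of 11 listed genes of steroid synthesis, 7 passed the filter in model 1, among them Cyp11a1, whose fits are descriptions. Besides Cyp11a1, edgeR called none of them higher and 1 lower in model 1, where it called 6.82% of all genes higher and 6.49% lower. The median log2 fold change of the 7, Cyp11a1 included, was 0.51, against -0.0012 over all genes. In model 2, where edgeR called 0% of all genes, none of 7 was called. The median there, Cyp11a1 included, was 0.32, against -0.030. Fdxr, the reductase that passes electrons by ferredoxin to CYP11A1, fell from 32.7 ± 7.37 to 16.2 ± 3.40 CPM in model 1 (log2 fold change -1.02, edgeR adjusted p = 0.0259). The call was lost without leukemic_28, leukemic_39, preleukemic_77 or preleukemic_224 (adjusted p = 0.0779 to 0.0947). In model 2 it was at 29.7 CPM in the leukaemic and 25.1 CPM in the preleukaemic mice (adjusted p = 0.765). Fdx1, the ferredoxin itself, was at 21.3 and 14.7 CPM in leukaemic and preleukaemic TgSpi1FA-/- mice (adjusted p = 0.452) and at 17.1 and 8.30 CPM in model 2 (adjusted p = 0.259). Star, which brings cholesterol to the enzyme in mitochondria, was at 3.21 and 2.26 CPM in model 1 and 2.77 and 2.21 CPM in model 2. Por, the electron donor of microsomal cytochromes P450, had log2 fold changes of 0.15 and -0.47, and Tspo, a protein of the outer mitochondrial membrane, of 0.04 and 0.36, none of them called. Hsd3b1, which makes progesterone from the product of CYP11A1, was looked at after its values had been seen. It was at 6.49 ± 5.56 against 0.569 ± 0.638 CPM in model 1 (edgeR adjusted p = 0.0701, DESeq2 0.00358, where DESeq2 called 19.8% of genes) and at 0.292 against 1.45 CPM in model 2 (edgeR adjusted p = 0.243). Nr5a1, the nuclear receptor that acts with TReP-132 in steroidogenic cells, did not pass the filter in either model and had a mean of 0.169 CPM in the TgSpi1FA-/- leukaemic mice and 0 in the preleukaemic ones.

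**Figure D2:**
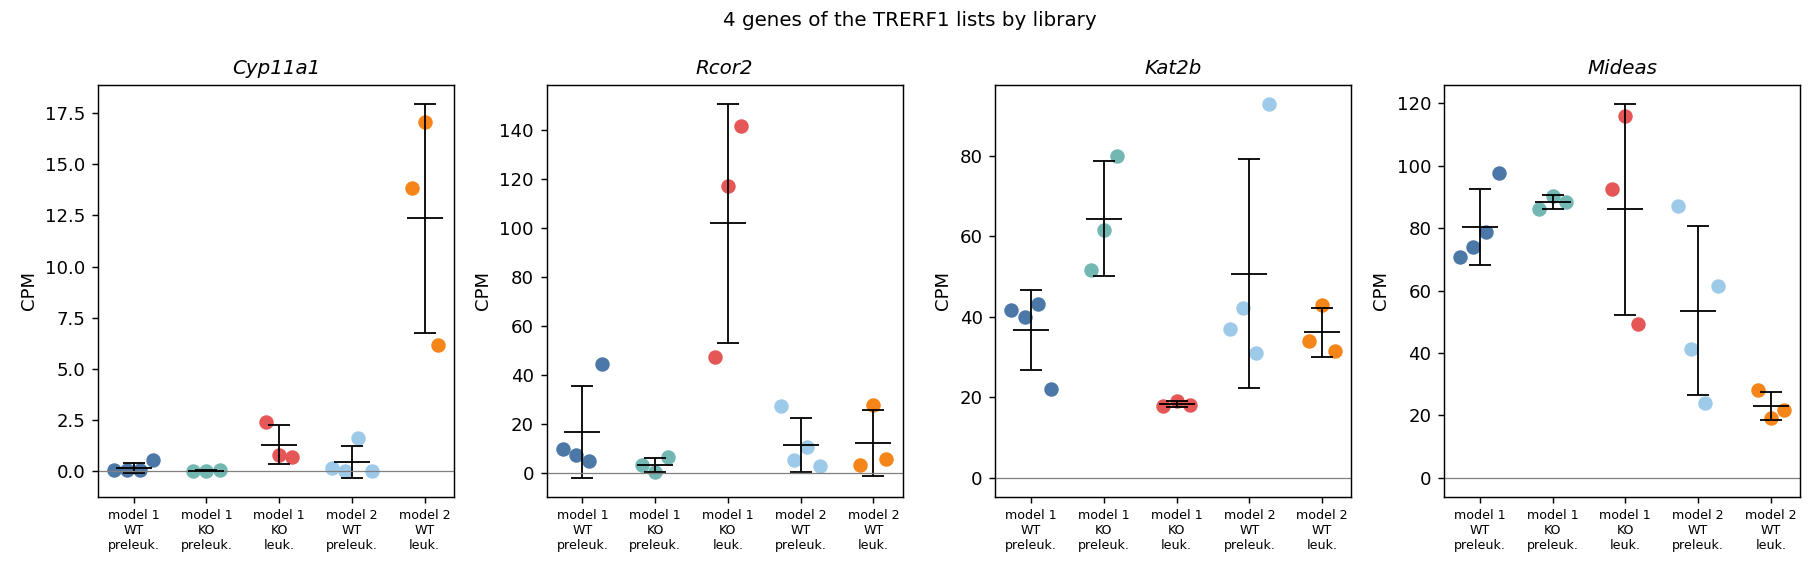
CPM of Cyp11a1, Rcor2, Kat2b and Mideas in each library (points) of the 5 groups, with the group mean and SD (bars). Cyp11a1 is highest in the leukaemic mice of model 2 (6.16 to 17.1 CPM), Rcor2 in the TgSpi1FA-/- leukaemic mice (47.5 to 142 CPM), and Kat2b is lowest in the TgSpi1FA-/- leukaemic mice (17.8 to 19.2 CPM).

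None of the partners and paralogues of TRERF1 in the histone deacetylase complex was called in either model by edgeR, which called 13.3% of all genes in model 1 and 0% in model 2. Of 6 genes, 4 passed the filter, with median log2 fold changes of 0.14 and -0.15. Mideas, the paralogue that carries the mitotic complex, was at 92.6, 116 and 49.3 CPM in the TgSpi1FA-/- leukaemic mice leukemic_26, leukemic_28 and leukemic_39 and at 86.0 to 90.4 CPM in the TgSpi1FA-/- preleukaemic mice (log2 fold change -0.04, edgeR adjusted p = 0.941). Mouse leukemic_39, the highest for Trerf1 in this table, was the lowest for Mideas. In model 2 Mideas was at 28.1, 19.2 and 21.9 CPM in the leukaemic mice and at 24.2 to 87.2 CPM in the preleukaemic mice (log2 fold change -1.21, adjusted p = 0.192). Per kilobase of exon, the mean level of Trerf1 was 1.27 CPM per kb and that of Mideas 11.3 CPM per kb in the TgSpi1FA-/- leukaemic mice, and 0.885 and 3.03 CPM per kb in the leukaemic mice of model 2. Hdac1 was at 36.8 and 31.7 CPM, Hdac2 at 232 and 206 CPM and Dnttip1, which binds the deacetylase to the scaffold, at 41.5 and 38.6 CPM in leukaemic and preleukaemic TgSpi1FA-/- mice. Zfp541, the germ cell paralogue, and Kctd19, its partner, were below the filter at means of at most 0.196 CPM, and were named after their values had been seen.

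Among the other genes with an ELM2 and SANT pair, Rcor2 rose in model 1. It encodes a scaffold of the CoREST complex of a histone demethylase and deacetylases. It was at 47.5, 117 and 142 CPM in leukemic_26, leukemic_28 and leukemic_39, at 0.556 to 6.31 CPM in the TgSpi1FA-/- preleukaemic mice and at 44.6 CPM in preleukemic_138 against 5.03 to 9.64 CPM in the other TgSpi1FA+/+ mice. The log2 fold change of TgSpi1FA-/- leukaemic against preleukaemic mice was 4.95 (SE 1.13, edgeR adjusted p = 0.0258), and the call was lost without leukemic_28, leukemic_39, preleukemic_77 or preleukemic_224 (adjusted p = 0.0581 to 0.0755). In model 2 the groups overlapped, at 3.41 to 27.7 and 2.79 to 27.4 CPM (adjusted p = 0.963). The difference of the change between the models was 4.82 on the log2 scale and did not pass the threshold (adjusted p = 0.0714). Mier3, which encodes another deacetylase corepressor, fell in model 1 (log2 fold change -0.82, adjusted p = 0.0331), but its adjusted p was 0.0526 to 0.111 in 9 of the 15 alternatives. Of the 10 genes, 9 passed the filter, 1 rose, 1 fell, and 7 were not called, with a median of -0.16 in model 1, where edgeR called 6.82% of all genes higher and 6.49% lower. In model 2, where edgeR called 0% of all genes, none was called and the median was -0.62. Mta2 and Mta1, subunits of the NuRD complex, had log2 fold changes of 0.02 and -0.06 in model 1 and -0.82 and -0.44 in model 2 (edgeR adjusted p of 0.162 and 0.195). Rcor1 was at -0.34 and -1.04, and Mier1 at -0.68 and 0.30. DESeq2 called 2 of 9 genes lower in model 2, Mta2 and Mta3, with adjusted p of 0.0291 and 0.0395, and 0 higher. It called 3.45% of all genes either way there.

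Of the 7 cofactors and cell cycle targets listed for human TRERF1, 6 passed the filter and edgeR called 1 in model 1 (13.3% of all genes) and 0 in model 2 (0% of all genes). Kat2b, the acetyltransferase PCAF, fell in model 1 to 17.8, 19.2 and 18.2 CPM from 51.7, 61.6 and 79.9 CPM in the TgSpi1FA-/- preleukaemic mice (log2 fold change -1.81, SE 0.27, edgeR adjusted p = 0.00836). It was called in every one of the 15 alternatives. In the TgSpi1FA+/+ mice it was at 22.0 CPM in preleukemic_138 and 39.9 to 43.2 CPM in the others. In model 2 the groups overlapped, at 31.4 to 43.0 and 31.1 to 92.9 CPM (adjusted p = 0.531), and the difference between the models was -1.33 (adjusted p = 0.105). The acetyltransferases Crebbp and Ep300, and the zinc finger factor Sp1, had log2 fold changes of -0.30, 0.24 and -0.17 in model 1 and of -1.13, -1.21 and -0.78 in model 2, none of them called by edgeR. The cell cycle inhibitor Cdkn1b was at 51.5 and 54.7 CPM in model 1 and at 111 and 79.8 CPM in model 2. Pgr, the progesterone receptor with which the human protein was reported to act, was listed at 0 in all libraries of model 2.

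**Figure D3:**
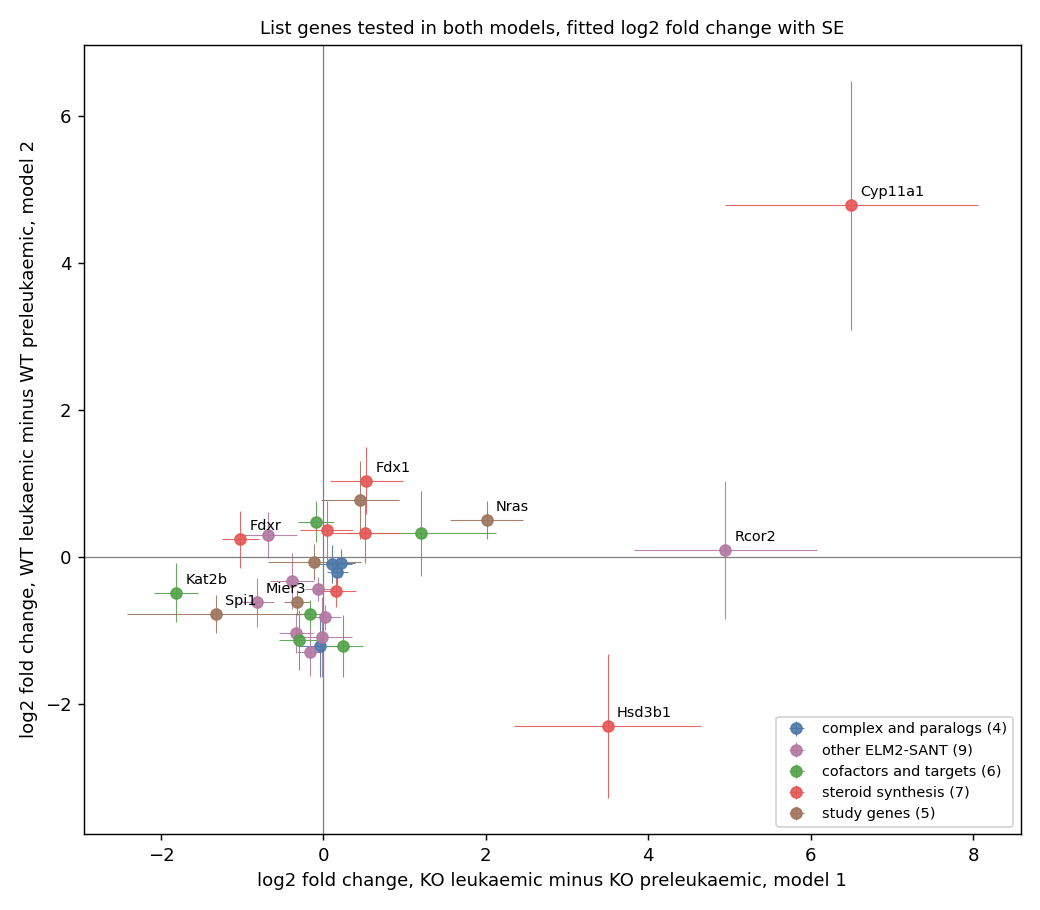
Fitted log2 fold change of leukaemic against preleukaemic mice in model 1 (x axis) and model 2 (y axis) for the 31 genes of the 5 lists that were tested in both models, with bars for 1 SE. Cyp11a1 lies far from the rest, at 6.50 and 4.79, Rcor2 at 4.95 and 0.10, and Hsd3b1 at 3.50 and -2.31.

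Of the 5 genes listed for the study (Spi1, Fanca, Kit, Nras and Gata1), edgeR called Nras between leukaemic and preleukaemic mice of model 1. It called 13.3% of all genes there. In model 2 it called none of the 5, as it called 0% of all genes. Nras encodes a RAS protein and was at 274, 928 and 1077 CPM in leukemic_26, leukemic_28 and leukemic_39 against 142 to 230 CPM in the TgSpi1FA-/- preleukaemic mice (log2 fold change 2.01, edgeR adjusted p = 0.0249). Its adjusted p was 0.0564 to 0.0864 without leukemic_28, leukemic_39, preleukemic_40, preleukemic_77 or preleukemic_224. In model 2 it was at 272, 304 and 153 CPM against 155 to 214 CPM (adjusted p = 0.328). Spi1 was at 630, 220 and 3.88 CPM in leukemic_26, leukemic_28 and leukemic_39, and at 4.67 CPM in leukemic_39 in the second table. Mouse leukemic_39 therefore had the lowest Spi1 in both tables, with the highest Trerf1 of the leukaemic mice in the first and the lowest in the second. In model 2 Spi1 was at 103 to 188 CPM in the leukaemic and 215 to 332 CPM in the preleukaemic mice (log2 fold change -0.78, adjusted p = 0.182). The Pearson r of Trerf1 with Spi1 was -0.66 in model 1 and -0.74 in model 2. With Gata1, the erythroid master factor, r was -0.64 and -0.93, and with the receptor gene Kit 0.02 and 0.54.

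Of 64 protein-coding genes within 1 Mb of Trerf1 on chromosome 17, 41 passed the filter in model 1. There 2 rose and 0 fell by edgeR, which called 6.82% of all genes higher and 6.49% lower, and the median log2 fold change was -0.01. DESeq2 called 6 of 47 either way, against 19.8% of all genes. All 6 were higher (Frs3, Ptk7, Cul7, Treml4, Polr1c and Ccnd3), and the share of all genes that DESeq2 called higher alone is not given here. Ptk7 and Treml4 had not passed the edgeR filter. In model 2, 40 passed, and edgeR called none of them, as it called 0% of all genes. DESeq2 called 1 of 41 there, Ccnd3, against 3.45% of all genes. The median in model 2 was -0.31, against -0.030 over all genes, with 12 of 40 values above 0. The nearest genes on either side, taken by position, were Mrps10, a mitochondrial ribosomal protein gene 6.9 kb after Trerf1, and Ubr2, a ubiquitin ligase gene. Mrps10 was at 28.4 ± 3.04 CPM in the leukaemic and 29.5 ± 1.52 CPM in the preleukaemic TgSpi1FA-/- mice, and at 77.7 to 95.4 against 33.1 to 73.2 CPM in model 2 (adjusted p = 0.889 and 0.176). Ubr2 had log2 fold changes of -0.55 and -0.86 (adjusted p = 0.0887 and 0.162), and its leukaemic libraries lay below its preleukaemic ones in both models. Polr1c, a subunit gene of RNA polymerases I and III, rose in model 1, at 134 to 154 CPM in the leukaemic and 67.5 to 83.6 CPM in the preleukaemic TgSpi1FA-/- mice (log2 fold change 0.86, edgeR adjusted p = 0.0165), and its adjusted p was 0.0526 without preleukemic_40 and 0.051 without preleukemic_224. Ccnd3, the gene of cyclin D3, was at 444, 286 and 266 CPM in leukemic_26, leukemic_28 and leukemic_39 against 119 to 190 CPM (log2 fold change 1.03, adjusted p = 0.0479). The call of Ccnd3 was lost in 10 of 15 alternatives, with adjusted p up to 0.139. In the second table, which holds no TgSpi1FA-/- preleukaemic mouse, Ccnd3 was at 157.4 to 448 CPM in the leukaemic mice. The TgSpi1FA+/+ preleukaemic mice there overlapped them, at 179.6 to 599.5 CPM. In model 2 Ccnd3 was at 73.3 to 110 CPM in the leukaemic and 187 to 366 CPM in the preleukaemic mice (log2 fold change -1.45, edgeR adjusted p = 0.162, DESeq2 0.00608). The difference between the models was 2.47 (adjusted p = 0.0285). Xpo5, Rpl7l1, Klhdc3 and Treml2, the other neighbours with the highest levels, had log2 fold changes of -0.16, -0.01, 0.01 and 0.13 in model 1 and of -0.74, 0.47, -0.53 and -0.76 in model 2, none of them called.

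**Figure D4:**
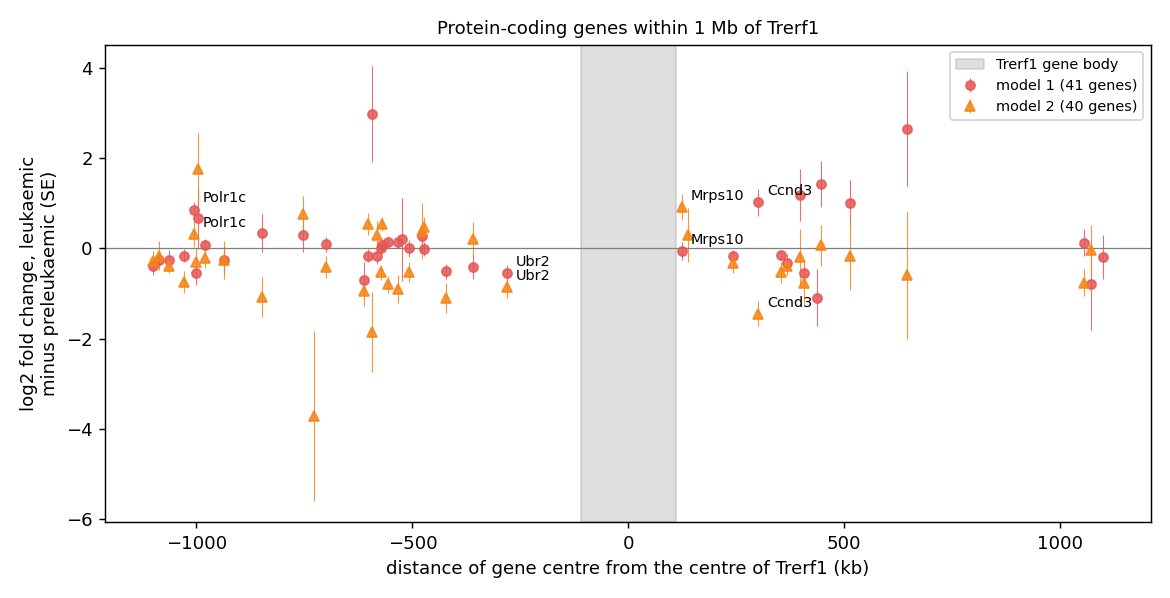
Fitted log2 fold change with SE of leukaemic against preleukaemic mice for protein-coding genes within 1 Mb of Trerf1, by the distance of their centres from its centre in kb, in model 1 (circles, 41 genes) and model 2 (triangles, 40 genes). The grey band is the body of Trerf1. In model 1, 19 of 41 values are above 0 (median -0.01), and in model 2, 12 of 40 (median -0.31), with Ccnd3 at 1.03 and -1.45.

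Genes whose level followed Trerf1 within each model were ranked by the smaller of their Pearson r over 10 libraries of model 1 and over 7 of model 2. Among 12090 genes the median r was -0.053 and -0.039, 32 genes had an r of at least 0.8 in both models, and none of at least 0.9. The libraries of a model share the leukaemic or preleukaemic state that the choice of Trerf1 rests on, so that the order is a description and says nothing of shared control. The 10 most alike were Apoo, Hspb11, Cnbp, Rps21, Mcfd2, Ccdc138, Mff, Pdss1, Dctpp1 and Atp5h, with a smaller r of 0.848 to 0.891. Apoo, which encodes a subunit of the complex that shapes mitochondrial cristae, had an r of 0.89 and 0.91, with means of 1.78 CPM in preleukaemic and 3.32 CPM in leukaemic TgSpi1FA-/- mice and of 19.3 and 33.4 CPM in model 2. Hspb11, an intraflagellar transport gene, was at 2.73 and 7.24 CPM and at 5.71 and 13.7 CPM in the same order. Rps21, a ribosomal protein gene, was at 146 and 250 CPM and at 395 and 928 CPM. Mff, a receptor of mitochondrial fission, was at 130 and 220 CPM and at 139 and 197 CPM. Cnbp, a nucleic acid binding protein gene, Mcfd2, a cargo receptor subunit, Pdss1, of coenzyme Q synthesis, Dctpp1, a nucleotide pyrophosphatase gene, and Atp5h, of ATP synthase, had leukaemic means 1.18 to 1.65 times the preleukaemic ones in model 1 and 1.28 to 2.53 times in model 2.

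The 5 genes most opposite to Trerf1 were Gga1, Napa, Dnajb12, Pnpla7 and Pola1, with r of -0.98 to -0.90. More genes ran against Trerf1 than with it, 113 at an r of at most -0.8 in both models against 32 at 0.8 or more. Gga1, a sorting adaptor of the Golgi, was at 88.3 and 58.6 CPM in preleukaemic and leukaemic TgSpi1FA-/- mice and at 52.5 and 30.3 CPM in model 2. Pola1, the catalytic subunit gene of DNA polymerase alpha, was at 236 and 139 CPM and at 141 and 98.2 CPM. Napa, a membrane fusion factor, was at 161 and 119 CPM and at 129 and 93.1 CPM. With the Spearman correlation 2 of the 10 most alike and 0 of the 5 most opposite genes were in the same list again. With 1 mouse left out, 4 to 9 of the 10 were, and the smaller r of the 10 genes stayed at 0.78 or above.

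**Figure D5:**
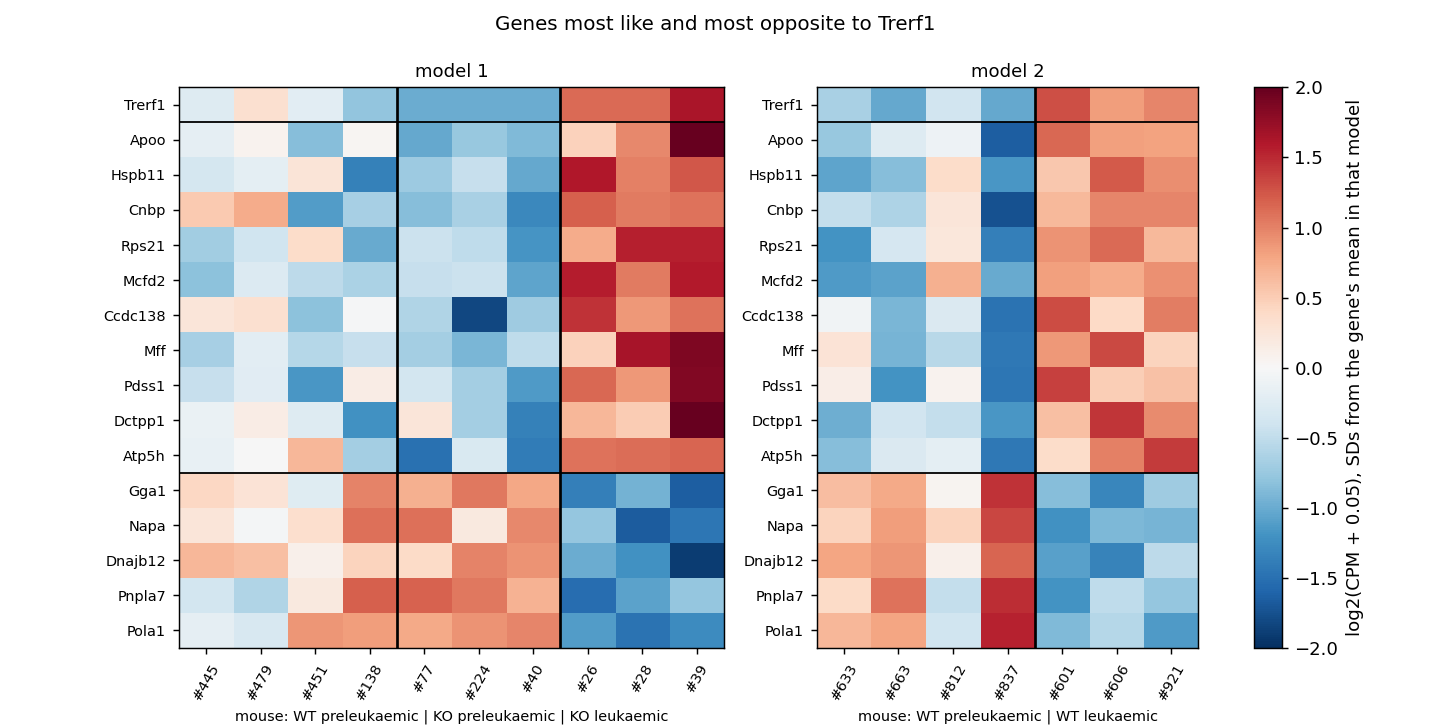
Levels of Trerf1 (top row), the 10 genes most like it and the 5 most opposite (bottom rows) in each mouse of model 1 (left) and model 2 (right), as SDs of log2(CPM + 0.05) from the mean of the gene in that model. Black lines separate the groups. The leukaemic mice are red in the upper rows and blue in the lower ones, with Trerf1 r of 0.85 to 0.94 in the upper and -0.98 to -0.90 in the lower rows.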

How the data were processed

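RNA-seq counts of 17 mouse libraries (polyA RNA, TruSeq stranded kit) were used. The values the authors deposited are raw counts of reads on each Ensembl gene, not normalized. The submitters' processing notes name bcl2fastq 2.17.1.14, STAR 2.5.3a, HTSeq 0.6.1p1 and the builds mm10 and GRCm38. Whether reads were counted by strand is not given in the sources used here, and 0 columns belonged to other samples. A file repeats the counts of model 2 and was set aside. Depth, which sets the limit for Trerf1, is given with the results.

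Groups came from the sample titles. The member, lists and comparisons were chosen with earlier results of these data known. Each model was filtered (filterByExpr), TMM-normalized and tested with edgeR 4.0.16 (R 4.3.3, glmQLFit and glmQLFTest, Benjamini-Hochberg adjustment over all genes). A gene was called when its adjusted p was under 0.05 and it changed 1.5-fold or more. A planned test of Trerf1 for Fanca loss is not used as a result, since the choice of Trerf1 used some of its libraries. The SE is the log2 fold change divided by the root of F. The difference between models was an interaction over 14597 genes of 17 libraries, of which 672 were called, and it carries the strain and protocol. Mice are separate animals, with 1 library each. The steps were tested on simulated data. Positions came from GENCODE M21, which held 99.804% of the gene identifiers.

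Of each list the genes called and up to 4 others with the highest mean CPM were named, with exceptions stated. Likeness took the 10 most alike and 5 most opposite genes, without gene models. In the list of 5 study genes, Spi1, Fanca, Kit and Nras were taken from the study, and Gata1 was added as an erythroid factor. This list is no independent evidence. Alternatives were DESeq2 1.42.0 (Wald test, size factors), the library total without scaling, no filter, 1 CPM in 3 libraries, each mouse left out, the second table, Spearman correlation and prior counts of 0.5 and 10.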

Additional observations from a re-analysis of the deposited data

Results flagged for a closer look

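Single mice stood apart in 10 of 59 groups of 4 preleukaemic mice tested with Dixon's gap (critical value 0.829). Chance flags about 1 in 20 groups only where the 4 values are independent and normally spread. Kctd19 and Cyp11a1 had counts near 0 in most of these mice, and preleukemic_445 and preleukemic_479 were much alike in model 1. Genes of 1 mouse are not independent either, so the 10 of 59 cannot be set against that rate. In model 1, preleukemic_138 was at 44.6 CPM for Rcor2 (5.03 to 9.64 in the others), 22.0 CPM for Kat2b (39.9 to 43.2), 0.511 CPM for Cyp11a1 (0.0312 to 0.032) and 0.114 CPM for Kctd19 (0 in the others). For Rcor2, Kat2b and Cyp11a1 it lay on the side of the TgSpi1FA-/- leukaemic mice, although its Trerf1 was the lowest of the 4. Mouse preleukemic_451 was at 264 CPM for Hdac2 (193 to 201).

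In model 2, preleukemic_812 was at 1.63 CPM for Cyp11a1 (0 to 0.151), 9.84 CPM for Hspb11 (3.98 to 4.77) and 59.0 CPM for Mcfd2 (33.6 to 35.0). It was also the highest preleukaemic mouse for Trerf1, at 0.187 CPM. Its counting interval for Trerf1 (2.81 to 14.4 counts) overlapped those of the other preleukaemic mice of model 2. Hspb11 and Mcfd2 were picked because they follow Trerf1 over these same libraries, so their values in this mouse are no separate evidence. Mouse preleukemic_633 was at 214 CPM for Nras (155 to 161), and preleukemic_837 at 76.0 CPM for Polr1c (117 to 125).

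By the interaction test, which 4.6% of 14597 genes passed, the leukaemic change differed between the models for 2 of 43 neighbours of Trerf1. For Ccnd3 the difference was 2.47 (log2, model 1 minus model 2, adjusted p = 0.0285). For Ppp2r5d, a regulatory subunit gene of protein phosphatase 2A, it was 0.92 (adjusted p = 0.0306), with means of 133 and 120 CPM in leukaemic and preleukaemic TgSpi1FA-/- mice and of 46.8 and 81.0 CPM in model 2. Strain and library protocol differ between the models and cannot be told apart from this difference.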

How the results depend on the processing

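The mean CPM of Trerf1 stayed at 0 in the TgSpi1FA-/- preleukaemic mice. In the other groups it moved by less than 1 SD under DESeq2 size factors, the library total without scaling and no filter. It also did so in the second table, for the groups held there. Leaving out 1 mouse cannot move a group mean by as much as 1 SD, so the SD is no check there. The mean was then 6.68 to 14 CPM in the TgSpi1FA-/- leukaemic mice and 5.39 to 9.85 CPM in the leukaemic mice of model 2. The ratio of leukaemic to preleukaemic means was 18 to 68.9 with 1 mouse left out for TgSpi1FA-/- leukaemic against TgSpi1FA+/+ preleukaemic mice and 82.2 to 319 for model 2. For Fanca loss the fitted log2 fold change of Trerf1 was -6.67 with edgeR (adjusted p = 0.535), -6.02 with DESeq2 (adjusted p = 0.00834) and -7.05 to -5.55 with 1 mouse left out. These fits rest on libraries that the choice of Trerf1 used, with 1 group at 0 counts, and support nothing.

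Counts of genes called moved more. DESeq2 called 3099 genes in TgSpi1FA-/- leukaemic against preleukaemic mice, 256 for Fanca loss and 470 in model 2, and 13 and 3 of the list genes in the leukaemic comparisons of models 1 and 2, where edgeR called 1782, 1, 0, 8 and 0. The 13 and the 8 list genes of model 1 include Cyp11a1, whose fits are descriptions. No filter gave 4 genes for Fanca loss. With 1 mouse left out the counts were 414 to 2319, 1 to 16 and 0 to 1 genes, and 1 to 9 list genes in model 1. The lowest for all genes was without leukemic_28 (414), with 418 without preleukemic_224, 711 without leukemic_39, 822 without preleukemic_77 and 833 without preleukemic_40. For list genes it was 1 without preleukemic_224, 2 without leukemic_28 or leukemic_39, 3 without preleukemic_77 and 4 without preleukemic_40. For Fanca loss it was 16 without preleukemic_451, 5 without preleukemic_138 and 2 without preleukemic_224. The alternative in which preleukemic_445 and preleukemic_479 were summed was chosen after seeing the data and left these counts within 1.5 times, but the calls of Ccnd3 and Mier3 were lost (adjusted p = 0.072 and 0.0526).

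Of the 10 genes most like Trerf1, 2 were listed again with Spearman, 5 with a prior count of 10 and 4 to 9 with 1 mouse left out, and of the 5 most opposite 0, 2 and 2 to 5. The cause was not tested.

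No paired analysis was possible because no mouse number occurs in more than 1 group. Depth limits the preleukaemic levels of Trerf1 and Cyp11a1 in the libraries where they lie near or under 3 counts. Some libraries lay well above this. Trerf1 had 31 counts in preleukemic_479 in the first table and 35 in preleukemic_445 in the second. Cyp11a1 was at 1.63 CPM in preleukemic_812.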
